A study of Papio anubis with 12 samples.

Results

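Long-chain polyunsaturated fatty acids (LCPUFA) in infant formula were compared with none in the cerebral cortex of baboon neonates (Papio anubis). The 8 arrays of animals fed formula L or formula L3 were pooled and set against the 4 arrays of animals fed the control formula C, so all 12 arrays of the study entered the comparison. Formula C held neither docosahexaenoic acid (DHA) nor arachidonic acid (ARA). Formula L held 0.33% DHA with 0.67% ARA, and formula L3 held 1.00% DHA with the same 0.67% ARA. In all 3 groups the neonates were born at about 182 days of gestation, took their formula for 12 weeks and were 83 to 87 days old at necropsy. No breastfed group was compared here. RNA came from the precentral gyrus, which holds the primary motor cortex, with 1 array per animal and 4 animals per formula. Males were 2 of the 4 C animals (replicates 1 and 4), 1 of the 4 L animals (replicate 2) and 0 of the 4 L3 animals. The pooled comparison, written LCPUFA/C, asks what the presence of both fatty acids does, and because ARA and DHA were always given together their effects cannot be told apart.

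DHA and ARA are the main LCPUFA of brain membranes. They are made from shorter precursors by desaturases and elongases, are activated to acyl-CoA, are built into phospholipids and are released again by phospholipases A2. The freed acids feed oxygenases that make prostaglandins and leukotrienes, and they bind nuclear receptors of the PPAR and RXR families that control genes of fat oxidation and storage. In the months after birth the cortex takes up DHA rapidly while neurons form synapses and oligodendrocytes begin to myelinate.

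The values are MAS5 signals of Affymetrix HG-U133 Plus 2.0 arrays, whose probes match human transcripts. They were used as log2(signal + 16) after quantile normalization, and a log2 difference is the mean of the 8 LCPUFA arrays minus the mean of the 4 C arrays on this scale (SE, the standard error, is limma's). The arrays fell into 2 classes of 6 by the signal of the hybridization controls, each with 2 C and 4 LCPUFA arrays. Lower control signal was found in C replicates 3 and 4, L replicates 2, 3 and 4 and L3 replicate 4. Among these 6 arrays the correlation between arrays was 0.838 to 0.888 (Spearman's rho over all probe sets), and among the other 6 it was 0.623 to 0.760. The 3'/5' ratio of ACTB, a measure of RNA integrity, was 0.904 to 3.64 in the first class and 3.65 to 72.3 in the second. The first class held 3 L arrays and 1 L3 array, and the second 1 L array and 3 L3 arrays. Differences between L and L3, wherever given below, therefore cannot be fully told apart from differences between the array classes. Mean hybridization control signal was 12.0 ± 0.67 in C (SD, n = 4) and 12.2 ± 1.21 in LCPUFA (SD, n = 8) on the log2 scale, a difference within the spread (exact permutation p = 0.784). The classes were compared for 81 of the probe sets named below. Of these, 15 had differences of opposite sign in the 2 classes, and their values within each class are given as lower/higher class. Outside the 81 were CYSLTR2, PPARA, PPARG, PPARD, RXRA, CPT1A, EGR1, C1QA, C1QC, EGFR and HES1, for which no class values are given. XIST and RPS4Y1 separated the 3 males from the 9 females as labelled, while the levels of DDX3Y, KDM5D and EIF1AY overlapped between the sexes.

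No probe set passed the test after adjustment. The log2 difference was above 0 for 49.2% of the 54613 probe sets. Of all of them 0 (0%) had an adjusted p under 0.05 by limma with Benjamini-Hochberg adjustment, and the smallest adjusted p was 1.00. At an unadjusted p under 0.05 limma found 1432 probe sets (2.62%), fewer than the 2731 that make 5% of those tested. LCPUFA was higher for 732 of these (1.34%) and lower for 700 (1.28%). By the exact two-sided permutation test over all arrangements of 8 against 4 arrays, 1700 probe sets (3.11%) had an unadjusted p under 0.05 and 0 passed after adjustment. The smallest p this test can give is 0.00404. All 8 LCPUFA arrays lay above all 4 C arrays for 53 probe sets (0.097%), and all 8 lay below for 55 (0.101%). P values here weigh each difference against the spread between arrays. With 1 array per animal, that spread holds differences between animals and between arrays alike.

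The differences between formulas with and without LCPUFA were small against their error. The median size of the log2 difference was 0.25 and the median SE 0.44, so that the 95% interval reached a median of 0.94 to either side. A difference of at least 2-fold was measured for 1428 probe sets (2.61%), and 46065 (84.3%) differed by less than 1.5-fold. The interval lay wholly within 2-fold for 31.9% of all probe sets. It did so for 19.2% of those below the median level, for 44.7% of those above it and for 85.6% of the 5462 brightest. Each formula was also set against the same 4 C arrays, which L/C and L3/C therefore share. At that unadjusted threshold limma gave 1324 probe sets (2.42%) for L/C and 2329 (4.26%) for L3/C. Between the formulas (L3/L) it gave 2949 (5.4%), and for a difference of any kind among the 3 groups 2006 (3.67%), of which 0 passed after adjustment in either case.

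Markers of the meninges and of fibroblasts were higher with LCPUFA in every case measured, though none passed the adjusted test. All 12 listed genes had a positive LCPUFA/C difference by their brightest probe set, against 45.5% of all 19775 genes with such a probe set. Of those genes 2.31% had an unadjusted p under 0.05 in LCPUFA/C, and 5.06% in L3/L. Their median log2 difference was 0.70, and the median of all genes was -0.03. An unadjusted p under 0.05 was reached by 3 of the 12, where 1.08% of all genes reached it in this direction, and 0 of the 12 separated the groups without overlap. Markers of one tissue rise and fall together from sample to sample, so the 12 genes are not 12 independent measurements. The list was chosen with earlier results of these data known. It holds LUM and OGN, which the paper had reported as raised in both formulas on these samples, so the counts are a description. The other cell type lists stood nearer to the background, with medians between -0.13 for choroid plexus and ependyma and 0.21 for erythroid genes.

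The mean log2 level of the 12 markers was 8.74, 8.58, 9.29 and 8.45 in C replicates 1 to 4. It was 8.66, 9.17, 9.61 and 10.15 in L replicates 1 to 4, and 8.77, 10.37, 9.60 and 9.35 in L3 replicates 1 to 4. Of the 8 LCPUFA arrays 5 lay above all C arrays, and the groups overlapped. In whole tissue, a larger share of meningeal cells in the sample and more RNA per such cell cannot be told apart. How much of the pial covering each dissected piece kept is not given in the sources used here, and its part in the result was not tested.

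OGN (osteoglycin), a small leucine-rich proteoglycan of connective tissue, measured 7.89, 6.01, 8.08 and 4.92 in the C arrays. In LCPUFA its lowest value was 7.53, its median 8.08 and its highest 9.10. The low mean of C rested on replicates 2 and 4, and the other C arrays lay within the LCPUFA range. The log2 difference was 1.49 (SE 0.55, 2.81-fold, exact permutation p = 0.0687), and it was 0.89 without C replicate 4. Its other probe set gave 1.07. SLC13A4, a sulfate transporter of the leptomeninges and choroid plexus, measured 6.89, 5.94, 8.91 and 8.70 in C against a lowest value of 7.57, a median of 9.04 and a highest of 9.69 in LCPUFA. Here C replicates 1 and 2 were low, and replicate 2 was low for OGN as well. The difference of SLC13A4 was 1.28 (SE 0.52, exact permutation p = 0.0646), and 0.72 without C replicate 2. It was 0.44 in the array class of lower and 2.12 in that of higher control signal.

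DCN (decorin), which binds collagen fibrils, was 9.75, 9.79, 10.21 and 9.34 in C, and in LCPUFA the lowest, median and highest values were 9.61, 10.69 and 11.59. Of the LCPUFA arrays 5 lay above every C array. The log2 difference was 0.88 (SE 0.35, 1.84-fold, exact permutation p = 0.0566), with 0.83 for L and 0.93 for L3 against C. LUM (lumican), another leucine-rich proteoglycan and 1 of the 9 genes that the study took to RT-PCR, was 7.44, 6.91, 7.12 and 6.64 in C. The L arrays gave 7.21, 7.80, 7.85 and 6.99, and the L3 arrays 8.15, 8.96, 7.45 and 7.26. The LUM difference was 0.68 (SE 0.40, exact permutation p = 0.0485), with 5 of 8 LCPUFA arrays above all C arrays. The mean level of the other 11 markers moved beside it, from 8.92 in C to 9.62 in LCPUFA. The part of these markers in the LUM difference was not tested.

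The fibrillar collagens were also higher on average, with differences of 0.72 for COL1A1 (SE 0.55), 0.72 for COL1A2 (SE 0.35) and 0.50 for COL3A1 (SE 0.41). SLC22A6, an organic anion transporter of the leptomeninges, differed by 1.07 (SE 0.63) with a wide spread, 6 LCPUFA arrays lying above and 2 below all C arrays. It was 2.39 in the array class of lower and -0.24 in that of higher control signal. The smallest differences were those of PTGDS (prostaglandin D2 synthase, 0.31), FN1 (fibronectin, 0.24), COL6A3 (0.23, lower/higher class -0.05/0.52) and BGN (biglycan, 0.18). Over all 41 probe sets of these genes, 35 were higher in LCPUFA, 3 had an unadjusted p under 0.05 in this direction and 0 in the other, and the median was 0.49.

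**Figure D1:**
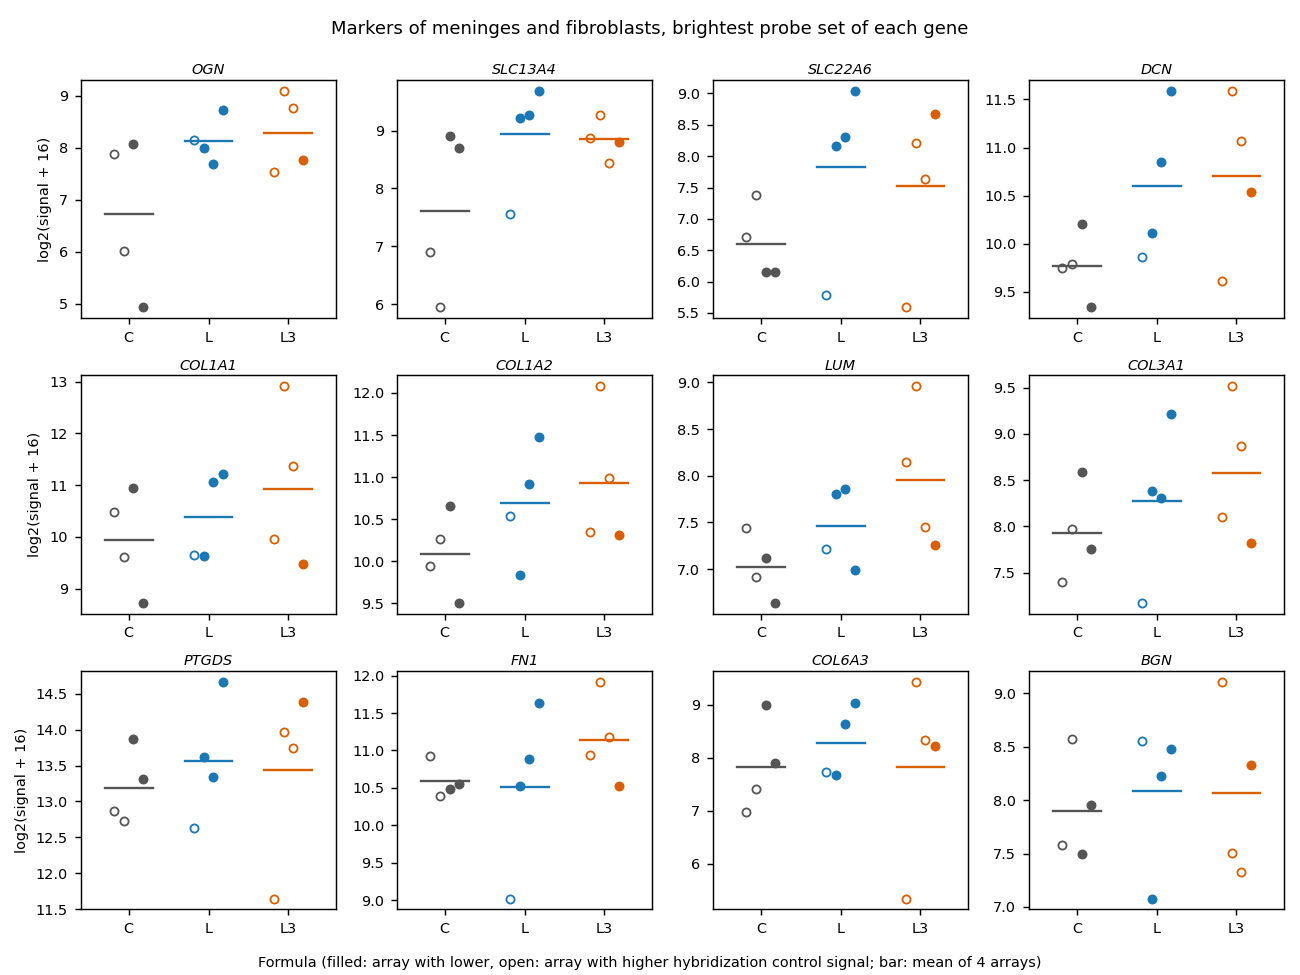
Log2(signal + 16) of the 12 meningeal and fibroblast markers in each array, by formula, with filled points for the 6 arrays of lower and open points for the 6 of higher hybridization control signal and bars for the mean of 4 arrays. OGN and SLC13A4 each have 2 low C arrays, and in no panel do the 8 LCPUFA arrays lie wholly above the 4 C arrays.

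The marker difference was present in both array classes and smaller with sex in the fit. The median difference of the 12 genes was 0.48 within the 6 arrays of lower and 0.75 within the 6 of higher hybridization control signal, with 11 of 12 positive in a fit to either class alone. The median was 0.45 for L and 0.88 for L3. Males made up 2 of 4 C and 1 of 8 LCPUFA arrays. With sex as a covariate 10 of 12 genes were higher and the median was 0.40, with BGN and COL6A3 on the other side of 0. Among females alone, with 2 C arrays, 11 were higher, the median was 0.51 and 0 of the 12 had an unadjusted p under 0.05. Without L3 replicate 2, the array with the highest marker level, the median was 0.45 and 11 were higher.

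**Figure D2:**
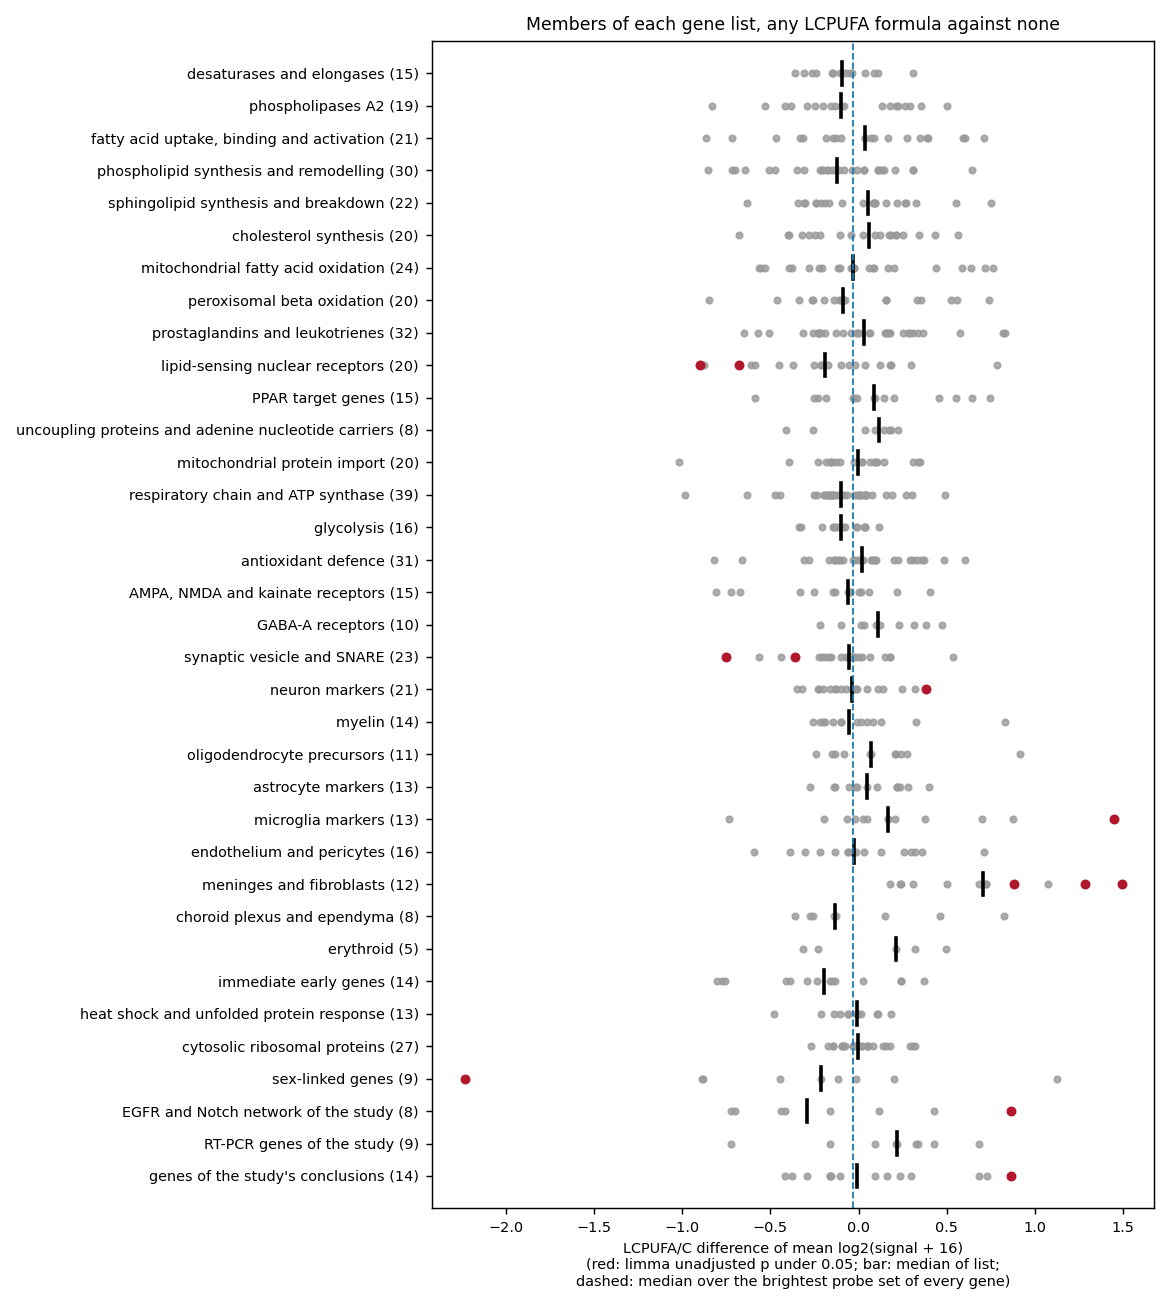
LCPUFA/C difference in mean log2(signal + 16) of each measured member (points) of 35 gene lists, with the number measured in brackets, red points for an unadjusted limma p under 0.05, black bars for list medians and a dashed line for the median of all genes (-0.03). The list of meninges and fibroblasts has all 12 points to the right of 0 and the largest median of the 35 (0.70).

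Desaturases and elongases make DHA and ARA from their precursors. None of the 15 measured members reached an unadjusted p under 0.05, with 4 higher and 11 lower, a median of -0.09 and a range from -0.36 to 0.31. The interval lay within 2-fold for 8 of the 15. FADS2, the desaturase of the first step, measured 5.82, 7.87, 7.30 and 6.93 in C, and in LCPUFA its lowest value was 5.30, its median 7.17 and its highest 8.29. The groups overlapped throughout, with a difference of 0.04 (95% interval -1.11 to 1.19, lower/higher class 0.56/-0.49), and neither a 2-fold higher nor a 2-fold lower level lay outside the interval. Its L/C difference was 0.65 and its L3/C difference -0.58 (L3/L unadjusted p = 0.0681 by limma). ELOVL5, which elongates the intermediates of both families, was 10.29, 9.70, 10.15 and 10.12 in C with a median of 10.13 in LCPUFA. Its difference of -0.11 had an interval from -0.79 to 0.57 (lower/higher class 0.20/-0.41), and its 3 other probe sets gave 0.13 to 0.22.

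ELOVL2, which elongates the last precursors of DHA, differed by -0.31 with an interval from -1.93 to 1.32. ELOVL4, the elongase of very long chains, differed by -0.36 (lower/higher class 0.16/-0.88), with 0.31 for L and -1.03 for L3 (L3/L unadjusted p = 0.0501 by limma). HACD2, an acyl-CoA dehydratase of the elongation cycle, had the smallest p of the list with a difference of -0.26 (SE 0.25), and its other probe set gave 0.38. FADS1 was not analysed here, because no probe set carried its symbol alone.

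Genes that take up, bind and activate fatty acids also gave 0 of 21 at an unadjusted p under 0.05, with 12 higher, 9 lower, a median of 0.04 and 10 intervals within 2-fold. MFSD2A, the carrier that brings DHA across the brain endothelium as lysophosphatidylcholine, measured 7.99, 5.55, 7.73 and 8.73 in C. In LCPUFA it ranged from 6.37 to 9.38 with a median of 8.48, so that the groups overlapped. Its difference was 0.71 (95% interval -0.60 to 2.01), and its other probe set gave -0.22. Without C replicate 2, the low array, the MFSD2A difference was 0.058, and leaving out other single arrays gave up to 1.12. With sex as a covariate it was 1.28 (unadjusted p = 0.0517 by limma), and among females alone 1.41 (unadjusted p = 0.0955 by limma). FABP7, the brain fatty acid binding protein of radial glia and astrocytes, was 10.39, 9.38, 9.71 and 9.49 in C, and in LCPUFA the lowest was 9.60, the median 10.20 and the highest 10.38. Every LCPUFA array lay under C replicate 1. The difference was 0.39 (SE 0.22, exact permutation p = 0.101), and both other probe sets were higher too, by 0.35 and 0.38. FABP5, a related binding protein that also takes up DHA, differed by 0.35 (SE 0.30), and ACSL6, the acyl-CoA synthetase that traps DHA in neurons, by 0.04 (SE 0.24, lower/higher class -0.17/0.24). SLC27A6, a fatty acid transport protein, had the smallest p of the list at -0.86 (SE 0.43, exact permutation p = 0.0727) from a dim probe set.

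**Figure D3:**
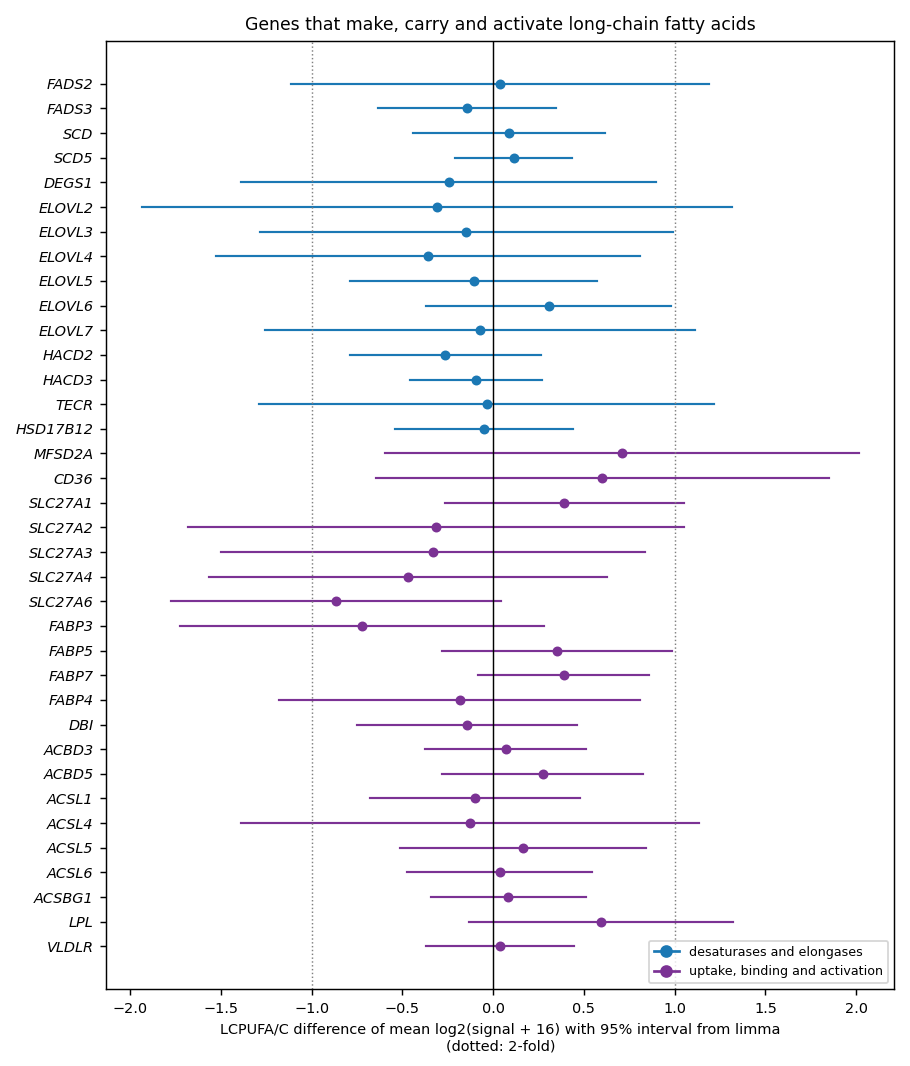
LCPUFA/C difference in mean log2(signal + 16) with its 95% interval from limma for 15 desaturases, elongases and their partners (blue) and 21 genes of fatty acid uptake, binding and activation (purple), with dotted lines at a 2-fold difference. All 36 intervals cross 0, and 8 of the 15 and 10 of the 21 lie wholly within a 2-fold difference.

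Phospholipases A2, which release ARA and DHA from membranes, gave 8 higher and 11 lower members of 19, a median of -0.10 and 0 at an unadjusted p under 0.05. PLA2G12A, a secreted form, came nearest. It measured 8.70, 8.81, 8.61 and 8.41 in C, and in LCPUFA the lowest, median and highest values were 8.69, 8.93 and 9.93, with 6 arrays above all C. The difference was 0.50 (SE 0.25, exact permutation p = 0.0202), and all 3 other probe sets were higher, by 0.29 to 0.84. PLA2G6, the calcium-independent enzyme linked to DHA release, was 9.36, 9.02, 8.94 and 9.04 in C with a median of 8.83 in LCPUFA. It differed by -0.29 (95% interval -0.86 to 0.27), and its other 2 probe sets gave 0.22 and -0.40. The probe sets of PLA2G6 thus lay on both sides of 0.

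The remaining lipid pathways lay near the background. Phospholipid synthesis and remodelling had 11 higher and 19 lower of 30 with a median of -0.12, and PCYT1A, the rate-limiting enzyme of phosphatidylcholine synthesis, had the smallest p at 0.64 (SE 0.34, lower/higher class -0.11/1.39). Sphingolipid synthesis and breakdown had 12 higher of 22 and a median of 0.05, with SMPD2, a sphingomyelinase, at 0.75 (SE 0.46, lower/higher class -0.08/1.57). Cholesterol synthesis had 11 higher of 20 and a median of 0.06. Its member with the smallest p, HSD17B7, a reductase of the later steps, differed by -0.68 (SE 0.40). None of these lists had a member at an unadjusted p under 0.05. The same held for prostaglandins and leukotrienes, with 17 higher of 32 and a median of 0.03. There CYSLTR1, a receptor for cysteinyl leukotrienes, differed by 0.83 (SE 0.44), and CYSLTR2 by 0.82 (SE 0.49).

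Lipid-sensing nuclear receptors and their partners had 6 higher and 14 lower of 20 and a median of -0.19, with 2 lower (RORB and HNF4G) at an unadjusted p under 0.05 against a background of 1.23% in this direction. RORB, an orphan receptor of layer IV cortical neurons, measured 11.25, 10.61, 10.87 and 10.78 in C. Its lowest, median and highest values in LCPUFA were 9.59, 10.01 and 10.82, and 6 of the 8 arrays lay below all C arrays. The difference was -0.68 (SE 0.25, exact permutation p = 0.0283). It was -0.65 for L and -0.71 for L3, -0.59 and -0.77 in the array classes of lower and higher control signal, and -0.56 with sex as a covariate, where its unadjusted p was 0.0637 by limma. Both other RORB probe sets were lower too, by -0.42 and -1.42. HNF4G, whose probe set was dim, differed by -0.90 (SE 0.38), and its other probe set gave 0.55. With sex as a covariate HNF4G differed by -0.75 (unadjusted p = 0.0987 by limma), so that neither receptor was then under 0.05. Among receptors that bind fatty acids, PPARA differed by -0.21 (SE 0.43), PPARG by -0.10 (SE 0.22, from a dim probe set), PPARD by 0.04 (SE 0.25) and RXRA by 0.18 (SE 0.24). PPARA had 8 other probe sets, of which 3 had the same sign.

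PPAR target genes had 8 higher of 15 and a median of 0.09, with PDK4, the kinase that holds back pyruvate oxidation, at 0.74 (SE 0.48, lower/higher class -0.16/1.65). Mitochondrial fatty acid oxidation had 10 higher and 14 lower of 24 with a median of -0.03, the same as that of all genes. CPT1A, its entry step, differed by 0.09 (SE 0.48), and ACAA2, the last thiolase, by 0.71 (SE 0.47, lower/higher class 1.45/-0.02). Both other ACAA2 probe sets had the other sign, at -0.51 and -0.25. Peroxisomal beta oxidation, which shortens the last precursor of DHA, had 7 higher and 13 lower of 20 and a median of -0.09. PEX11A, which drives peroxisome division, had its smallest p at -0.85 (SE 0.52).

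The uncoupling proteins and adenine nucleotide carriers had 6 higher and 2 lower of 8 with a median of 0.12. SLC25A31, a nucleotide carrier best known from testis, had the smallest p at -0.41 (SE 0.41). UCP2, an uncoupling protein of the inner mitochondrial membrane found in many tissues and a gene the study followed by RT-PCR, measured 9.47, 6.97, 8.78 and 8.77 in C. In LCPUFA the lowest was 6.57, the median 8.99 and the highest 9.62, so that both groups spanned nearly the same range. The pooled difference of 0.09 (95% interval -0.99 to 1.18, lower/higher class 0.64/-0.46) joined a value of 0.70 for L and one of -0.51 for L3. The L3/L difference of UCP2 had an unadjusted p of 0.0564 by limma. Its other probe set gave 0.52, and without C replicate 2 the brightest one gave -0.42. The paper, from RMA values, reports UCP2 as raised with both formulas, more so with L3, and its RT-PCR went the same way. The L3 value of the brightest probe set here, from MAS5 signals, has the other sign.

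Genes of mitochondrial protein import had 10 higher and 10 lower of 20 and a median near 0, with TIMM22, the core of the carrier translocase, at -1.02 (SE 0.55). The TIMM22 difference was -0.14 in the array class of lower and -1.90 in that of higher control signal. Both other TIMM22 probe sets had the other sign, at 0.07 and 0.36. TIMM8A, a small chaperone of the intermembrane space, measured 8.47, 7.17, 8.67 and 7.90 in C and a median of 8.26 in LCPUFA, with a difference of -0.16 (SE 0.48, lower/higher class 0.07/-0.39). A second, dimmer TIMM8A probe set gave 1.81 (SE 0.48, exact permutation p = 0.0121), so that the gene's 2 probe sets stood on opposite sides of 0. The respiratory chain and ATP synthase had 15 higher and 24 lower of 39 with a median of -0.10, and 29 of the 39 intervals lay within 2-fold. NDUFA8, a subunit of complex I, had the smallest p with -0.99 (SE 0.55), in which L replicate 1 at 5.34 stood far below the rest. Glycolysis had 4 higher and 12 lower of 16, a median of -0.10 and 15 intervals within 2-fold, with GPI at -0.34 (SE 0.28). Antioxidant defence had 17 higher of 31 and a median of 0.02, with SOD2, the mitochondrial superoxide dismutase, at 0.60 (SE 0.34, lower/higher class -0.11/1.32).

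Among genes of synapses the list of synaptic vesicles and SNARE proteins had 7 higher and 16 lower of 23. Of the lower ones 2 (SYN1 and SLC17A6) had an unadjusted p under 0.05, against 1.23% of all genes in this direction. SYN1 (synapsin I), which tethers vesicles in the terminal, was 11.72, 12.02, 11.76 and 11.53 in C, and in LCPUFA the lowest, median and highest values were 11.02, 11.39 and 11.65. Of the LCPUFA arrays 6 lay below all C arrays. The difference was -0.36 (SE 0.16, exact permutation p = 0.0121), while its other, dimmer probe set gave 0.14. With sex as a covariate SYN1 differed by -0.39, and its unadjusted limma p of 0.05001 lay just above the threshold. SLC17A6, the vesicular glutamate transporter VGLUT2, was 9.75, 9.04, 9.75 and 9.40 in C with a median of 8.52 in LCPUFA. It differed by -0.75 (SE 0.26, exact permutation p = 0.0566), with -1.21 for L and -0.29 for L3 (L3/L unadjusted p = 0.00789 by limma). The list median was -0.06, with 18 of 23 intervals within 2-fold.

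AMPA, NMDA and kainate receptors had 5 higher and 10 lower of 15 with a median of -0.06, and GABA-A receptors had 8 higher and 2 lower of 10 with a median of 0.11. Neither list had a member at an unadjusted p under 0.05. GRIA4, an AMPA receptor subunit, differed by -0.81 (SE 0.47), with 0.01 for L and -1.63 for L3. GABRG3, a GABA-A receptor subunit, differed by 0.47 (SE 0.40, lower/higher class -0.13/1.07), and its other probe set gave -0.42. Immediate early genes, which follow neuronal activity, had 4 higher and 10 lower of 14 and a median of -0.20. NR4A1 had the smallest p of them at -0.77 (SE 0.39), and EGR1 differed by -0.13 (SE 0.22).

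The tissue expressed the markers of cortex in all groups. The mean level of neuron markers over the 21 genes on the log2 scale was 11.35 to 11.47 in C and 11.27 to 11.47 in LCPUFA. In that list 6 were higher and 15 lower, with a median of -0.04. MAP2, a microtubule protein of dendrites, was 12.64, 12.64, 12.51 and 12.46 in C with a lowest value of 12.58, a median of 12.86 and a highest of 13.37 in LCPUFA. The MAP2 difference was 0.38 (SE 0.16, exact permutation p = 0.0283), with 6 of 8 arrays above all C, and its other probe set gave 0.37 (SE 0.51). It was 0.16 in the array class of lower and 0.60 in that of higher control signal. The unadjusted limma p of MAP2 was 0.0569 with sex as a covariate and 0.137 among females alone. Myelin genes had 6 higher of 14 and a median of -0.05, with ERMN (ermin) at 0.83 (SE 0.60). Oligodendrocyte precursors had 7 higher of 11 and a median of 0.07, with CSPG4 (NG2) at 0.92 (SE 0.58), and astrocyte markers had 7 of 13 and 0.05. AQP4, the water channel of astrocyte endfeet, differed by 0.40 (SE 0.22).

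Microglia markers had 9 higher of 13 and a median of 0.16. C1QB, a chain of complement C1q, measured 5.13, 5.49, 6.12 and 7.05 in C, and in LCPUFA the lowest was 5.73, the median 7.66 and the highest 8.35. The difference was 1.44 (SE 0.52, exact permutation p = 0.0323), with 6 of 8 arrays above all C. Every C value of C1QB lay under the median level of all probe sets (7.14), so its signal in C was dim. The other C1q chains gave 0.70 for C1QA (SE 0.61) and -0.02 for C1QC (SE 0.41). Endothelium and pericytes had 7 higher of 16 and a median of -0.03, with TEK, the angiopoietin receptor, at -0.59 (SE 0.31). Choroid plexus and ependyma had 3 higher of 8, with KL (klotho) at 0.82 (SE 0.50), and erythroid genes 3 of 5, with HBB at 0.21 (SE 0.21). Ribosomal proteins, taken as housekeeping genes, had 12 higher of 27 and a median of -0.01, and RPL19 had the smallest p at 0.31 (SE 0.24). The heat shock and unfolded protein list had 4 higher of 13 and a median of -0.01, with HSP90B1 at -0.48 (SE 0.47, lower/higher class 0.25/-1.21). Males were unevenly spread over the groups, and RPS4Y1, on the Y chromosome, stood at -2.23 (SE 0.96).

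Of the genes named for the study's own themes, chosen by the study on these samples and so not independent evidence, few stood apart. Its EGFR and Notch network had 3 higher and 5 lower of 8 and a median of -0.29. Within the array classes of lower and higher control signal the median was -0.27 and 0.23, on opposite sides of 0. TIMP3, an inhibitor of metalloproteinases, gave 0.86 (SE 0.41, exact permutation p = 0.117), and its 3 other probe sets -0.38 to 0.45. EGFR itself differed by -0.72 (SE 0.60) and HES1, a Notch target, by -0.70 (SE 0.46). The paper, from RMA values, reports HES1 as lowered with both formulas. It reports EGFR as raised with increasing DHA, and its RT-PCR went the same way. The EGFR value here, pooled over both formulas and from the brightest probe set of MAS5 signals, has the other sign. The 9 genes of the study's RT-PCR had 7 higher and 2 lower, a median of 0.22 and 0 at an unadjusted p under 0.05. The 14 measured genes of its conclusions had 7 higher and 7 lower. Over all 35 lists together, 263 of 581 measured genes were higher, and the other 318 were lower. Limma gave an unadjusted p under 0.05 to 11, of which 6 lay on the higher side and 5 on the lower. That is 1.89% of the list members, and the share over all genes was 2.31%. With sex as a covariate 4 of the 11 were still under 0.05 (OGN, SLC13A4, C1QB and SLC17A6), and among females alone 2 were (C1QB and SYN1). Other named list members came under 0.05 by limma in these settings though not in the main fit. They were ERMN (1.48), NR4A1 (-1.08) and SLC27A6 (-1.13) with sex as a covariate. Among females alone they were the same 3 genes with FABP7 (0.65), PDK4 (1.35) and TEK (-1.03).

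The 24 genes with the smallest p in LCPUFA/C are named next, 12 in each direction, among probe sets with 1 symbol and a level above the median, where an unadjusted p under 0.05 was found for 0.947% on the higher and 0.92% on the lower side. Since they were picked by this comparison, their values are a description. Their differences were 0.63 to 1.75 in size with unadjusted p of 0.00111 to 0.00784 by limma. In 5 of the 24 no LCPUFA array overlapped C (HMGA2, FTCD, SSBP3, CASTOR2 and PYY2), where 0.159% of the probe sets ranked did so, and in 13 more 7 of the 8 arrays stood clear. Of the 62 other probe sets of 18 of these genes 38 had the same sign, and 2, both of FCRL5 and on opposite sides of 0 (-0.99 and 1.00), had an unadjusted p under 0.05.

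HMGA2, a chromatin protein of embryonic and neural stem cells, was 7.79, 6.84, 5.81 and 7.71 in C. In LCPUFA the lowest was 7.80, the median 8.47 and the highest 8.88, so that the nearest arrays of the 2 groups almost met. The difference was 1.40 (SE 0.38, 2.65-fold, exact permutation p = 0.00404). Of the 8 other HMGA2 probe sets 6 had the same sign, with values from -0.62 to 0.37 and 0 at an unadjusted p under 0.05. FTCD, an enzyme of histidine breakdown that passes 1-carbon units to folate, was 7.42, 7.04, 6.20 and 6.17 in C against a lowest value of 7.64 and a highest of 8.93 in LCPUFA. It differed by 1.42 (SE 0.39), nearly alike in L (1.43) and L3 (1.41). Of its 5 other probe sets 2 had the same sign.

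TTPA, the alpha-tocopherol transfer protein that carries vitamin E, measured 5.43, 7.28, 6.47 and 5.95 in C. In LCPUFA the lowest, median and highest values were 6.70, 7.95 and 8.40, with 7 of 8 arrays above all C. It differed by 1.56 (SE 0.44, 2.94-fold, exact permutation p = 0.00808), by 1.61 for L and 1.51 for L3, and by 0.93 among females alone. The array holds no other probe set for it under 1 symbol. SLN (sarcolipin), a regulator of the calcium pump SERCA, was 9.11, 8.47, 9.15 and 9.23 in C, with a lowest value of 9.23 and a highest of 10.27 in LCPUFA. Its difference of 0.72 (SE 0.21) was made up of 1.07 for L and 0.37 for L3 (L3/L unadjusted p = 0.0122 by limma).

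The other genes on the higher side were of mixed function. DPH5, which makes diphthamide on elongation factor 2, differed by 1.31 (SE 0.34), RIF1, a factor of replication timing, by 1.42 (SE 0.39, lower/higher class 0.44/2.41), and PALLD (palladin), an actin-binding protein, by 1.35 (SE 0.39). Their other probe sets gave -0.03 to 0.38 for DPH5, -0.70 to 0.41 for RIF1 and -0.12 to 0.42 for PALLD. IL17RB, the receptor for interleukin 25, differed by 1.63 (SE 0.47), and TMEM47, a membrane protein of cell junctions, by 0.63 (SE 0.19). The other probe sets of IL17RB gave -0.44 and 0.02, and that of TMEM47 gave 0.04. ANXA11, a phospholipid-binding annexin, differed by 1.49 (SE 0.38), and both of its other probe sets had the other sign. FGF1, the acidic fibroblast growth factor, differed by 1.47 (SE 0.43), but 1 C array at 8.68 lay above 6 of the 8 LCPUFA arrays. FCRL5, an Fc receptor-like protein of B cells, differed by 1.44 (SE 0.44), by 0.20 in the array class of lower and 2.68 in that of higher control signal.

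On the lower side SSBP3, a cofactor of LIM-homeodomain transcription factors, was 11.60, 11.49, 11.67 and 11.35 in C and 10.33 to 11.29 in LCPUFA, with a median of 10.94. All 8 LCPUFA arrays lay below all C arrays. The difference was -0.64 (SE 0.19, exact permutation p = 0.00404), -0.40 and -0.88 in the array classes of lower and higher control signal, and both other probe sets were lower, by -0.35 and -0.50. CASTOR2, of the arginine sensor family of mTORC1, was 10.04, 9.72, 9.88 and 9.87 in C with a median of 8.50 and a highest value of 9.66 in LCPUFA. It differed by -1.34 (SE 0.42), and the LCPUFA arrays were spread widely (SD 0.91, n = 8) where the C arrays were close together (SD 0.13, n = 4). PYY2, a pseudogene of peptide YY, was 9.50, 8.70, 8.57 and 8.45 in C and 5.33 to 8.25 in LCPUFA, with a difference of -1.58 (SE 0.51).

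IL18BP, the decoy that binds interleukin 18, differed by -1.62 (SE 0.42), and both other probe sets were lower. MAPKBP1, a scaffold of JNK signalling, differed by -1.45 (SE 0.37), with -0.78 in L/C and -2.11 in L3/C. CD24, a surface glycoprotein of immature neurons, differed by -0.84 (SE 0.24), DRC1, of the ciliary dynein regulatory complex, by -1.75 (SE 0.49), and FAAP20, of the Fanconi anemia core complex, by -1.58 (SE 0.49). ZNF438, a zinc finger protein, differed by -1.58 (SE 0.50). APBA2, a neuronal adaptor that binds the amyloid precursor protein, differed by -1.33 (SE 0.43), and LTBR, the lymphotoxin beta receptor, by -1.001 (SE 0.33). The other probe sets of APBA2 and LTBR all had the other sign. SPMIP5, a microtubule protein of sperm, reached the list through L3, with -0.17 in L/C and -2.10 in L3/C (L3/L unadjusted p = 0.000194 by limma), and its pooled exact permutation p was 0.0929.

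**Figure D4:**
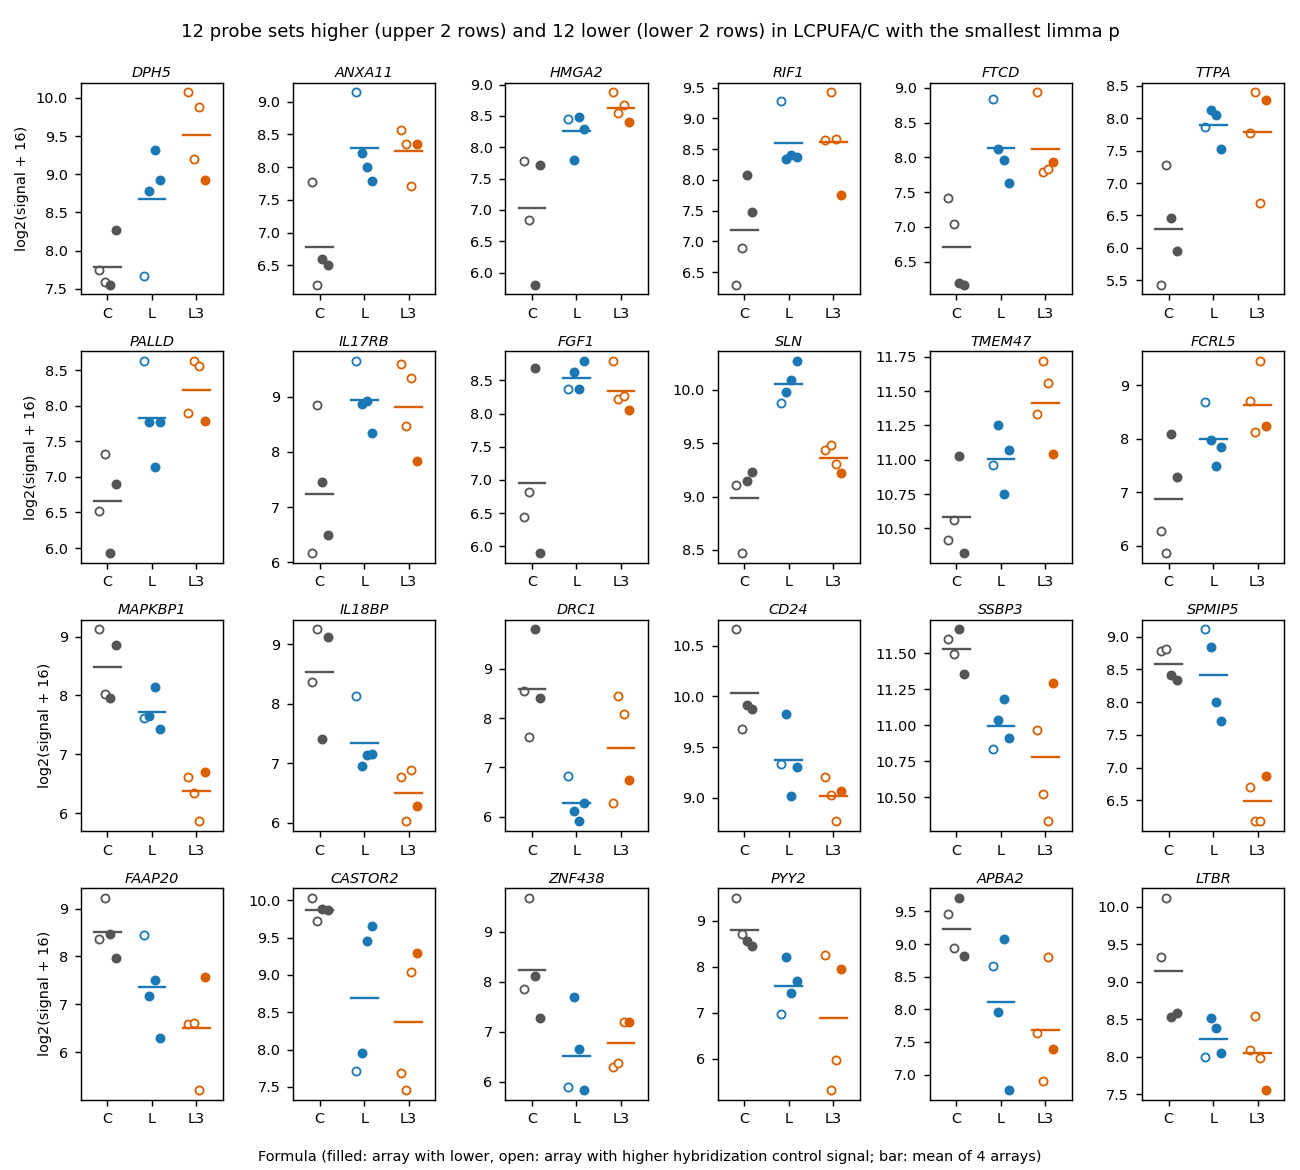
Log2(signal + 16) in each array, by formula, for the 12 genes higher (upper 2 rows) and the 12 lower (lower 2 rows) in LCPUFA/C with the smallest limma p, with filled and open points for arrays of lower and higher hybridization control signal and bars for the mean of 4 arrays. Only HMGA2, FTCD, SSBP3, CASTOR2 and PYY2 have no overlap, and SPMIP5 is lowest in L3.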

How the data were processed

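RNA of 12 animals was measured on 1 array each, and groups, replicate numbers, sex and age were taken from the sample records. The deposited table holds for each array the MAS5 signal, an intensity on a linear scale that the authors' software (MAS5 in GCOS, per the labels) scaled to a common trimmed mean. The paper's methods describe RMA, but the deposited values are MAS5. Left out were 62 control probe sets, and 54613 remained. To each signal 16 was added before log2 and quantile normalization. Limma 3.58.1 in R 4.3.3 fitted 3 group means (9 residual degrees of freedom, variance trend), and LCPUFA/C is the mean of L and L3 minus C. Benjamini-Hochberg adjustment ran over all probe sets. Exact permutation tests were two-sided over every arrangement of 8 against 4 arrays. Precision rests on 12 arrays.

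Probe sets were named from the platform annotation, by which 41091 have 1 symbol, 1801 several and 11721 none. A gene list uses the brightest probe set of each gene with 1 symbol. The lists hold 655 genes, of which 581 were measured. Genes, lists and members were chosen with earlier results of these data known. Named were the 12 genes in each direction with the smallest p (1 symbol, level above the median of 7.14), in each list up to 4 members at an unadjusted p under 0.05 or else the 1 with the smallest p, and UCP2, PLA2G6, TIMM8A and ELOVL5. The other members named were chosen for their role after their values were seen. The scripts were tested on simulated data.

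Alternatives were no further normalization, arrays centred on the median, pseudocounts of 1 and 64, probe sets above the median level only, no variance trend, a fit with 2 groups, sex or age as covariate, females only, a replicate block, array weights, hybridization control signal or ACTB ratio as covariate, other tests, all probe sets of a gene and leaving out each array. The array class as a block and each class alone were chosen after seeing the data. Same-numbered animals are not related by the labels, and the numbers were not used for pairing.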

Additional observations from a re-analysis of the deposited data

Results flagged for a closer look

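In each group of 4 and in the 8 LCPUFA arrays, the highest and lowest array of the 81 probe sets was compared with the rest by Dixon's criterion. Over 324 groups of 81 named probe sets 23 values stood apart, where chance at 1 in 20 gives 16.2, so that single values should not be read on their own. L replicate 1, whose median correlation with the other arrays was the lowest of the 12 (0.653), held the most of them. This array had an ACTB 3'/5' ratio of 11.0. It was high for RIF1 (9.28, others in L 8.33 to 8.41), IL18BP (8.13, others 6.95 to 7.15) and CYSLTR1 (8.41, others 7.24 to 7.37). It was low for NDUFA8 (5.34, in L and among all LCPUFA arrays), TIMM8A (6.17), ELOVL2 (5.41) and FABP5 (8.31, among all LCPUFA arrays). L replicate 2 was high for HACD2 (10.01), and, as the only male fed LCPUFA, for RPS4Y1 (11.67).

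Among the C arrays, replicate 4 was high for HSD17B7 (9.61) and low for CYSLTR1 (5.68) and TIMM22 (7.24). C replicate 2 was low for SLN (8.47), NDUFA8 (8.88) and GABRG3 (6.66). Among the L3 arrays, replicate 1 was high for FTCD (8.93) and low for COL6A3 (5.34), and replicate 2 was low for PLA2G6 (7.93). L3 replicate 3 was low for HSP90B1 (5.70) and high for RPS4Y1 (8.21). L3 replicate 4, the only L3 array of lower hybridization control signal, was high for RORB (10.82, others in L3 9.92 to 10.01) and low for MAP2 (12.61, others 13.27 to 13.37).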

How the results depend on the processing

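No probe set passed the adjusted limma test under any of 29 settings, the lowest adjusted p being 0.173 (females only). At an unadjusted p under 0.05 the count of 1432 became 524 with only probe sets above the median level, where fewer were tested, and 2186 in the 6 arrays of lower control signal. They were 1273 to 1961 when an array was left out. With the replicate block they were 1747. Deviations from the group means correlated at -0.085 to 0.331 (median 0.099) between same-numbered animals of different formulas. Between animals of other numbers they correlated at -0.317 to 0.266 (median -0.045). The ACTB 3'/5' ratio fell from replicate 1 to replicate 4 in each formula, and its part in these correlations was not tested. The labels do not relate same-numbered animals, and outside that block the numbers were not used as pairs. The share on the higher side was 51.1%, 58.4% without further normalization and 43.2% with centred arrays. The 108 probe sets without overlap became 67 without further normalization, 45 above the median level, 2103 in females only, 6639 and 6051 in the 6 arrays of lower and higher control signal, where there are fewer arrays to overlap, and 165 to 410 when an array was left out.

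Of 2341 values of the 81 probe sets under alternatives 2292 kept their direction and 49 turned, the cause of which was not tested. In the 6 arrays of lower control signal these were ACSL6 (-0.17), COL6A3 (-0.051), ELOVL4 (0.16), ELOVL5 (0.20), GABRG3 (-0.13), HSP90B1 (0.25), PCYT1A (-0.11), PDK4 (-0.16), SMPD2 (-0.078), SOD2 (-0.11) and TIMM8A (0.066). In the 6 of higher signal they were ACAA2 (-0.019), FADS2 (-0.49), SLC22A6 (-0.24) and UCP2 (-0.46). With sex as covariate they were BGN (-0.094), COL6A3 (-0.057), ELOVL2 (0.25), ELOVL5 (0.083), FADS2 (-0.28) and TIMM8A (0.013), and in females only ACSL6 (-0.043), COL6A3 (-0.048), ELOVL2 (0.47) and FADS2 (-0.52). ACSL6 was -0.0065 without further normalization, -0.075 with centred arrays and -0.0086 with array weights, and FADS2 was -0.0100 with age as covariate. Leaving out 1 array gave -0.064 to 0.12 for ACSL6, -0.045 to 0.65 for COL6A3, -1.05 to 0.074 for ELOVL2, -0.24 to 0.066 for ELOVL5, -0.00080 to 1.29 for ERMN, -0.35 to 0.33 for FADS2, -0.45 to 0.12 for TIMM8A and -0.42 to 0.42 for UCP2. Of 1050 list medians under alternatives 20 moved by more than the spread.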
